A study of Mus musculus with 4 samples.

Results

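The Hox genes were examined in Affymetrix expression arrays of basal cells sorted by flow cytometry from the skin of mouse embryos at embryonic day 16. Members were all probe sets that the platform annotation assigns to a single symbol made of Hox, a cluster letter from a to d and a number, and no measured value entered that choice. There were 48 such probe sets for 33 genes, of 45037 non-control probe sets for 18193 genes with a single symbol. Ezh2cKO embryos, which carry a conditional knockout of Ezh2, gave 2 arrays, and wild-type (WT) embryos gave 2 arrays, on a mixed background of the strains C57 and CD1. The labels name neither the Cre driver nor the deleted exons, and they do not say whether the replicates, numbered 1 and 2 in each genotype, came from separate animals. The p-values below measure only the spread between these arrays, and in the main fit that spread includes any difference between the replicate numbers. By its title the study asked how expression changes in epidermal cells without Polycomb silencing, and silencing itself was not measured in these arrays.

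Hox genes encode transcription factors with a homeodomain, a DNA-binding fold, and they specify position along the body axis. In the mouse they lie in clusters on chromosomes 6 (Hoxa), 11 (Hoxb), 15 (Hoxc) and 2 (Hoxd), and genes with the same paralog number in different clusters descend from a common ancestral gene. Low paralog numbers are expressed toward the head and high numbers toward the tail. Polycomb repressive complex 2, whose catalytic subunit is Ezh2, trimethylates histone H3 at lysine 27 (H3K27me3) and keeps Hox genes silent where they should not be expressed. In skin, Hox genes are known to be expressed in the dermis and in the epidermis, in patterns that follow body position.

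Ezh2 had a signal of 661 and 1308 in the Ezh2cKO arrays, against 3336 and 3603 in the WT arrays (log2 difference -1.88, SE 0.34). With all 4 arrays its unadjusted p in limma was 0.00193, the lowest of all probe sets tested, and its adjusted p was 0.999979. The log2 difference was -1.40 when Ezh2cKO replicate 1 was left out and -2.36 when Ezh2cKO replicate 2 was. It was -1.93 without WT replicate 1 and -1.82 without WT replicate 2. The signals are MAS5 values on a linear scale, and differences are on the log2(signal + 16) scale, which understates those of dim genes. Folds are these differences taken back from log2, so they include the added 16 and are not ratios of the printed signals. A probe set counts as kept when its mean signal lay in the upper 60% of the table, at 73.2 or more, which left 27022 probe sets for the test. All 6 basal keratinocyte markers listed were kept, with summed signals of 60997 and 59432 in the Ezh2cKO arrays and 66809 and 58382 in the WT arrays. Dermal fibroblast markers were kept in 9 of 9 cases, summing to 62987 and 72453 in the Ezh2cKO arrays and 63320 and 68787 in the WT arrays, with none of them near 0. With 0 of these 9 fibroblast genes separating the genotypes, their median log2 difference was -0.072. Endothelial markers had a summed signal of 3642 and 8597 in the Ezh2cKO arrays and 7070 and 7885 in the WT arrays, so Ezh2cKO replicate 1 held less of them. Xist, the RNA of the inactive X chromosome, was at 86.9 and 11333 in the Ezh2cKO arrays, against 8669 and 10527 in the WT arrays. Eif2s3y, a gene of the Y chromosome, was at 861 and 404 in the Ezh2cKO arrays, against 222 and 535 in the WT arrays, so by Xist the Ezh2cKO arrays were not repeats of 1 RNA, and the WT arrays differed in Eif2s3y. The part of these cells and of embryo sex in the Hox values was not tested, and fewer cells of a type cannot be told apart from less RNA per cell.

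Hox probe sets whose Ezh2cKO arrays lay above the WT arrays were mostly those of paralogs 7 to 9, and those whose Ezh2cKO arrays lay below belonged to paralogs 2, 3 and 5. Counting every member, dim ones included, 8 of 48 probe sets had both Ezh2cKO arrays above both WT arrays, and 4 of 48 had both below. Over all 45037 probe sets the shares were 9.11% above and 8.23% below. The count below was thus near the share over all probe sets, and 0 of the 4 stayed separated after scaling to a common median. Of the 8 higher probe sets, 7 belonged to the 10 probe sets of paralogs 7 to 9. The remaining one was Hoxb13, a dim probe set. Paralogs 1 to 6 had 0 of 26 probe sets above and all 4 of those below, and paralogs 10 to 13 had 1 of 12 above and 0 below. The range from 7 to 9 was chosen after the values were seen, so these counts are a description and carry no test. The median log2 difference of the 10 probe sets was 0.57, with 0.68 within replicate number 1 and 0.38 within number 2, while that of the other 38 was -0.011 and that of all probe sets 0.0088.

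**Figure D1:**
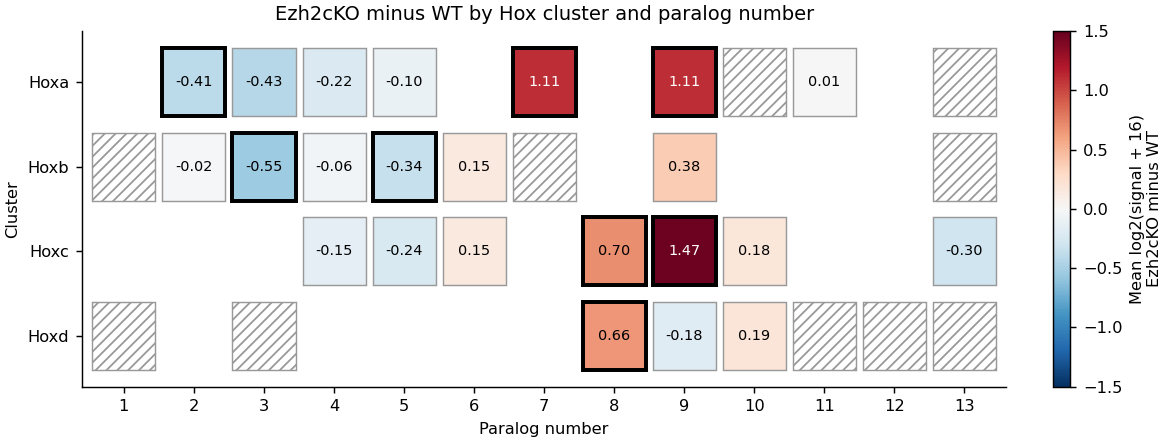
Mean difference in log2(signal + 16), Ezh2cKO minus WT over 2 arrays each, for 33 Hox genes by cluster (rows) and paralog number (columns), using each gene's probe set with the highest mean signal. Hatched cells are genes below the intensity filter, and thick frames mark kept genes whose Ezh2cKO arrays do not overlap the WT arrays. Empty places are positions with no mouse gene in RefSeq or, for 6 genes, no single-symbol probe set. The framed red cells, from 0.66 to 1.47, fall at paralogs 7 to 9 of Hoxa, Hoxc and Hoxd.

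No Hox probe set passed limma's adjusted threshold of 0.05, where 0% of all 27022 kept probe sets did. Ezh2, the gene that was knocked out, did not pass in this fit either. The count of 0 therefore does not show that the Hox genes were unchanged. This fit held no term for the replicate number, so differences between the numbers entered the spread behind its p-values. At an unadjusted limma p under 0.05, 5 of 34 kept Hox probe sets were higher and 1 was lower in Ezh2cKO. The shares over the whole tested table were 0.348% higher and 0.0592% lower, both small for that threshold. The 5 were single probe sets of Hoxa7, Hoxa9, Hoxc8, Hoxc9 and Hoxd8, and the lower one belonged to Hoxb3. These counts depended on the processing. Shares over all probe sets at this p were taken in the main fit only, so the counts below cannot be set against the table. The Hox counts were 3 higher and 0 lower after scaling to a common median and with no intensity trend. They were 3 and 1 after quantile normalization, and also in the upper 40% of probe sets, which held 24 Hox probe sets. With the replicate number as a block they were 7 and 3. They were 1 and 0 without WT replicate 1 and also without Ezh2cKO replicate 1. After scaling to a common median, the unadjusted limma p was 0.314 for Hoxc8 and 0.317 for Hoxd8 by 1431099_at. In that fit it was 0.0313 for Hoxa7, 0.0292 for Hoxa9 by 1455626_at and 0.00568 for Hoxc9. An exact permutation test of 2 arrays against 2 cannot go below a two-sided p of 0.333, so none is given for single genes. Hoxa7 and Hoxc9 (2 of the 34) were at least 1.5-fold higher within both replicate numbers, against 0.592% of all kept probe sets. At least 1.5-fold lower were 0 of the 34, against 0.115%. Hoxc9, which is in both of these higher counts, passed the intensity filter only through its Ezh2cKO arrays. The fit without the filter also gave 5 higher and 1 lower at an unadjusted limma p under 0.05. No test of the Hox genes as a group was run, so neither higher count is evidence about them as a group.

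Among paralogs 7 to 9, Hoxa7, which in mouse is expressed in and patterns the trunk, had a signal of 589.9 and 487 in the Ezh2cKO arrays, against 184 and 309.8 in the WT arrays. Both Ezh2cKO values lay above both WT values, with WT replicate 1 the lowest of the 4. The log2 difference was 1.11 (SE 0.32, 95% confidence interval 0.30 to 1.93), or 3.03-fold within number 1 and 1.54-fold within number 2. Hoxa9, a regulator of blood progenitors as well as of posterior patterning, had 2 probe sets. The first, 1455626_at, gave 512 and 268 in the Ezh2cKO arrays, against 133 and 199.8 in the WT arrays. Its difference of log2 1.11 (SE 0.41) rested mostly on Ezh2cKO replicate 1, being 3.54-fold within number 1 and 1.32-fold within number 2. The second, 1421579_at, gave 254 and 313 in the Ezh2cKO arrays, against 159 and 241 in the WT arrays, so that its genotypes also did not overlap. Its log2 difference was smaller, at 0.49 (SE 0.33).

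Hoxc8, which acts in the patterning of thoracic vertebrae and of motor neurons, had 1844 and 1546 in the Ezh2cKO arrays, against 865 and 1228 in the WT arrays. The Ezh2cKO arrays were the higher ones by log2 0.70 (SE 0.24), a fold of 2.11 for number 1 and 1.26 for number 2. Its neighbour Hoxc9, a repressor that sets thoracic motor neuron identity, had 226 and 174 in the Ezh2cKO arrays, against 91.2 and 40.4 in the WT arrays. This was the difference of greatest size among kept Hox probe sets, at log2 1.47 (SE 0.49), with 2.26-fold within number 1 and 3.37-fold within number 2. The WT mean of Hoxc9, 65.8, did not reach the 73.2 of the filter, so the probe set passed the filter only through its Ezh2cKO signals and its fold is uncertain.

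Hoxd8, of the cluster that also patterns limbs and trunk, had 1181 and 1297 in the Ezh2cKO arrays, against 699 and 869 in the WT arrays by probe set 1431099_at. Replicates lay close together here, and the difference of log2 0.66 (SE 0.21) was 1.67-fold within number 1 and 1.48-fold within number 2. The other Hoxd8 probe set, 1433638_s_at, had 584 and 774 in the Ezh2cKO arrays, against 445 and 560.4 in the WT arrays, with a log2 difference of 0.42 (SE 0.26). Its suffix marks a design that can detect several related transcripts. All 7 probe sets described so far were also separated after quantile normalization and after scaling to a common median.

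**Figure D2:**
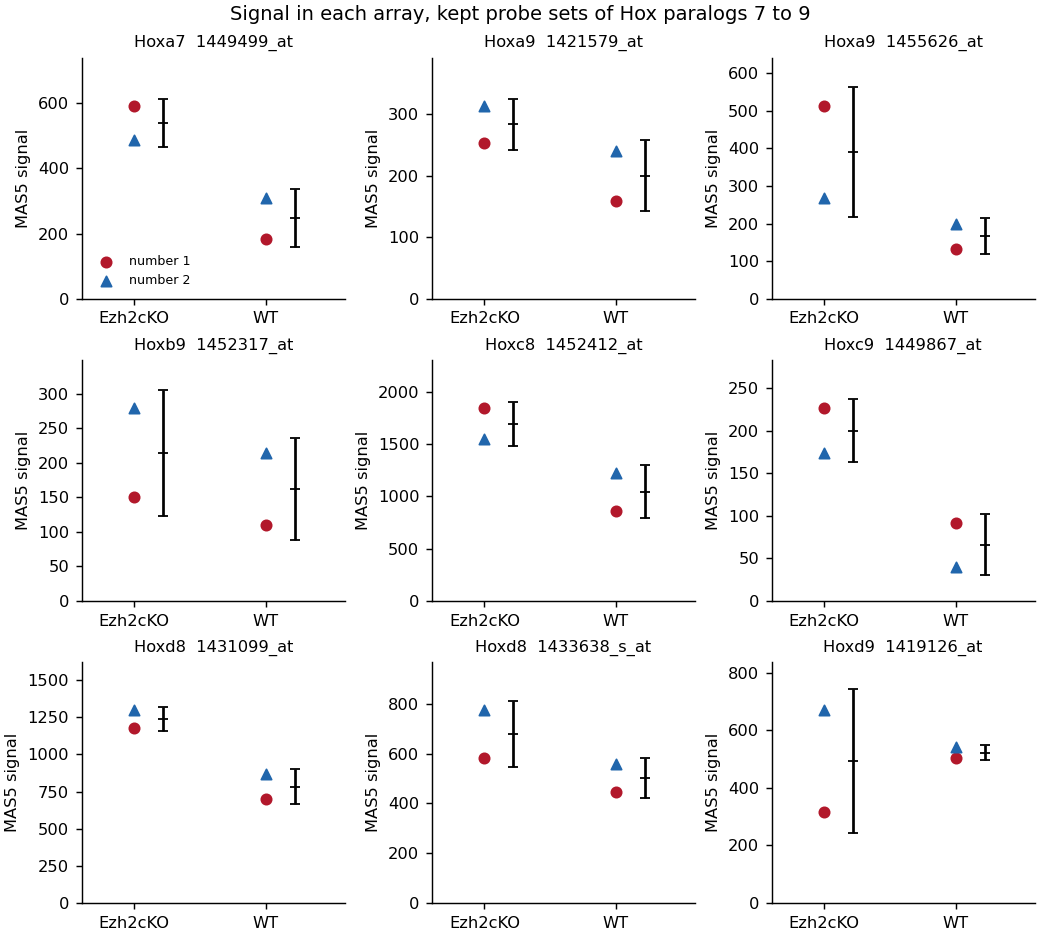
MAS5 signal (linear axis from 0) of the 9 kept probe sets of Hox paralogs 7 to 9 in the Ezh2cKO arrays (left) and the WT arrays (right) of each panel. Circles are replicate number 1, triangles number 2, and bars show mean ± SD with n = 2. In 7 panels both Ezh2cKO points lie above both WT points, and Hoxb9 and Hoxd9 overlap.

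Not every member of this stretch behaved alike. Hoxb9 had 149.8 and 279 in the Ezh2cKO arrays, against 109.7 and 215 in the WT arrays. It was higher within both numbers, by 1.32-fold and 1.28-fold, but the replicates of a genotype lay further apart than the genotypes did. Hoxd9, next to Hoxd8, had 315 and 669 in the Ezh2cKO arrays, against 503 and 541 in the WT arrays. Both Ezh2cKO values lay outside the WT range, one on either side, and its log2 difference was -0.65 within number 1 and 0.30 within number 2. Hoxb7 fell below the intensity filter, with 15.2 and 32.3 in the Ezh2cKO arrays and 18.2 and 46.1 in the WT arrays. Hoxb8 had no probe set with a single symbol in the annotation. By cluster, the probe sets of paralogs 7 to 9 that were separated upward were 3 of 3 in Hoxa, 0 of 2 in Hoxb, 2 of 2 in Hoxc and 2 of 3 in Hoxd, where the share over all probe sets was 9.11%, and this difference between clusters was not tested. A kept probe set annotated to both Hoxb8 and Hoxb7, 1452493_s_at, was not a member because it has 2 symbols. It had 291 and 312 in the Ezh2cKO arrays, against 169 and 255 in the WT arrays, and so was separated upward (log2 0.51), unlike the Hoxb members of this stretch.

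Promoter sequences are shown for the genes of paralogs 7 to 9 that RefSeq's promoter table for GRCm38.p6 lists among the members, because Polycomb complexes in mammals are recruited to CpG-rich DNA. Each is the 250 bases before the gene's start, 5′ to 3′ on the gene's strand, with CpG dinucleotides in capitals. The window of Hoxa7 lies on the minus strand at chr6:52218574-52218823 and overlaps no other listed gene. That of Hoxa9 lies on the minus strand at chr6:52227371-52227620 and overlaps the predicted gene Gm52902. The window of Hoxd8 lies on the plus strand at chr2:74704365-74704614 and overlaps the predicted gene Gm38462, and that of Hoxd9 on the plus strand at chr2:74697513-74697762, overlapping no other listed gene.
Hoxa7: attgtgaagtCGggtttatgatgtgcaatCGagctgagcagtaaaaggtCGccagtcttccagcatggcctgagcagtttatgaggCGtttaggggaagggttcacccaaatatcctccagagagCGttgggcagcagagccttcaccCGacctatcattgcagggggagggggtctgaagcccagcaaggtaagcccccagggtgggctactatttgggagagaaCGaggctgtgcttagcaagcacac
Hoxa9: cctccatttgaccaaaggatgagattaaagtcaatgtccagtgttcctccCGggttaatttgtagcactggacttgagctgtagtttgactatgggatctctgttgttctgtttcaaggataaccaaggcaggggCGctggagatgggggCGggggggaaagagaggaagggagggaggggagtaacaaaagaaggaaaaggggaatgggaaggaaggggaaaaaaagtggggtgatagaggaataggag
Hoxd8: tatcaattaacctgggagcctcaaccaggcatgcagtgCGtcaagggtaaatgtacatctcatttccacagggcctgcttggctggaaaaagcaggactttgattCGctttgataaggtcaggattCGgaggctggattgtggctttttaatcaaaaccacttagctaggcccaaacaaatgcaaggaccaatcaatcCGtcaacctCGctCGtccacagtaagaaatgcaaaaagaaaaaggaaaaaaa
Hoxd9: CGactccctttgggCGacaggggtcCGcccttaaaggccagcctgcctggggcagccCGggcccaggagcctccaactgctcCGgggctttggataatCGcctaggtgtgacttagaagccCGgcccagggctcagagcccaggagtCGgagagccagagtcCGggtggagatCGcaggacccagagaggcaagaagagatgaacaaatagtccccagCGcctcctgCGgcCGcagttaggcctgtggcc
Hoxa7 held 7 CpG dinucleotides, Hoxa9 held 3, Hoxd8 held 6 and Hoxd9 held 13. Genes not separated upward ranged widely, with 6 in Hoxa2, 8 in Hoxc4 and 35 in Hoxa13. Hoxc8, Hoxc9 and Hoxb9 had no window listed, and a link between these counts and the genotype differences was not tested. The table matched 19 of the 33 genes, with 21 windows, and these had a median of 13 CpG dinucleotides, against 6 over all 32851 windows of the table. By paralog number the median was 13 in 8 windows of paralogs 1 to 6, 6.5 in the 4 windows shown and 20 in 9 windows of paralogs 10 to 13. The letters TGATNNAT, a form of the site bound jointly by Hox and Pbx proteins, were searched on both strands and stood in none of the 4 windows, in 14.3% of the Hox windows and in 7.68% of all windows. These counts describe the windows only.

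The 7 kept probe sets of paralogs 1 to 3 had log2 differences from -0.55 to -0.015. Hoxb3, which acts in the hindbrain and pharyngeal region, had 528 and 512 in the Ezh2cKO arrays, against 721 and 821 in the WT arrays by probe set 1456229_at. The genotypes did not overlap, with a log2 difference of -0.55 (SE 0.21), 0.739-fold within number 1 and 0.630-fold within number 2. Its other probe set, 1427605_at, had 284 and 424 in the Ezh2cKO arrays and 278 and 444 in the WT arrays, a log2 difference of -0.015. The 2 probe sets of Hoxb3 thus gave unlike values. Hoxa2, which specifies the second branchial arch, had 346 and 334 in the Ezh2cKO arrays, against 538 and 388 in the WT arrays. Its values did not overlap, with log2 -0.41 (SE 0.26). Hoxb5 had 184 and 231 in the Ezh2cKO arrays, against 257 and 272 in the WT arrays, again without overlap (log2 -0.34, SE 0.28).

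Hoxc5, in the central part of its cluster, had 3 kept probe sets, of which 1450832_at gave 86.2 and 110.4 in the Ezh2cKO arrays, against 195 and 111.6 in the WT arrays. The replicates numbered 2 were nearly equal, and the log2 difference of -0.53 (SE 0.45) came from number 1. The other probe sets of Hoxc5 overlapped, with log2 differences of -0.24 and -0.15. These lower values depended on the scaling of the arrays: of the 4 separated downward, 2 (of Hoxb3 and Hoxb5) were still separated after quantile normalization and 0 after scaling to a common median, though the log2 difference of each stayed below 0 in both.

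The remaining kept members of paralogs 1 to 6 had overlapping genotypes. Hoxa3, an anterior regulator of thymus and neck structures, had 3 kept probe sets between log2 -0.43 and -0.055, and the probe sets of Hoxa5 gave -0.20 and -0.10. Hoxa4 had 673 and 308 in the Ezh2cKO arrays and 602 and 474 in the WT arrays, with differences of opposite sign within the numbers. Hoxb2 had 1430 and 1164 in the Ezh2cKO arrays and 1291 and 1326 in the WT arrays, a log2 difference of -0.02 (SE 0.19). Hoxb4 gave 0.12 and -0.055 by its 2 probe sets, Hoxb6 gave 0.15, and Hoxc4 gave -0.15. The 3 probe sets of Hoxc6, a gene of the thoracic region, lay between -0.027 and 0.15. Of the Hox genes, 8 had more than 1 kept probe set, and in 2 of these, Hoxb4 and Hoxc6, the probe sets differed in sign.

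Past paralog 9 the kept probe sets had overlapping genotypes, with log2 differences from -0.30 to 0.19. Hoxc10 had 83.0 and 179 in the Ezh2cKO arrays, against 70.9 and 157 in the WT arrays, a log2 difference of 0.18 (SE 0.57). Its replicates within a genotype differed far more than the genotypes. Hoxd10 gave log2 0.19 (SE 0.48) and Hoxa11 gave 0.0073 (SE 0.55). Hoxc13, which in mouse is required for hair and nail formation, had 169.7 and 98.1 in the Ezh2cKO arrays, against 184 and 144 in the WT arrays, with overlapping genotypes and log2 -0.30 (SE 0.41).

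By cluster, the kept probe sets had median log2 differences of -0.091 in Hoxa (11 probe sets), -0.017 in Hoxb (8), -0.027 in Hoxc (11) and 0.30 in Hoxd (4), against 0.0037 over all kept probe sets. Grouped along the axis, the medians were -0.091 for the 7 anterior probe sets (paralogs 1 to 3), -0.041 for the 18 central ones (4 to 8) and 0.19 for the 9 posterior ones (9 to 13). Leaving out Ezh2cKO replicate 1 gave a central median of 0.16 and a posterior median of 0.63, and leaving out Ezh2cKO replicate 2 gave 0.023 and -0.012. With WT replicate 1 removed they were -0.018 and -0.061, and with WT replicate 2 removed 0.11 and 0.68. Both changed sign over these fits. Each fit leaves the replicate numbers unbalanced between the genotypes, so the difference between the numbers enters these medians. The Hoxb median (-0.16 to 0.22) and the Hoxc median (-0.012 to 0.13) also changed sign over these 4 fits. Within number 1 the anterior, central and posterior medians were -0.22, 0.12 and 0.19, and within number 2 they were -0.19, 0.014 and 0.35. None of the 7 anterior probe sets was higher within both numbers, against 25.7% of all kept probe sets, and 3 were lower within both, against 23.0%. The central and posterior groups each mixed genes from paralogs 7 to 9 with others. The log2 differences of those others ran from -0.53 to 0.15 in paralogs 4 to 6 and from -0.30 to 0.19 in paralogs 10 to 13.

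**Figure D3:**
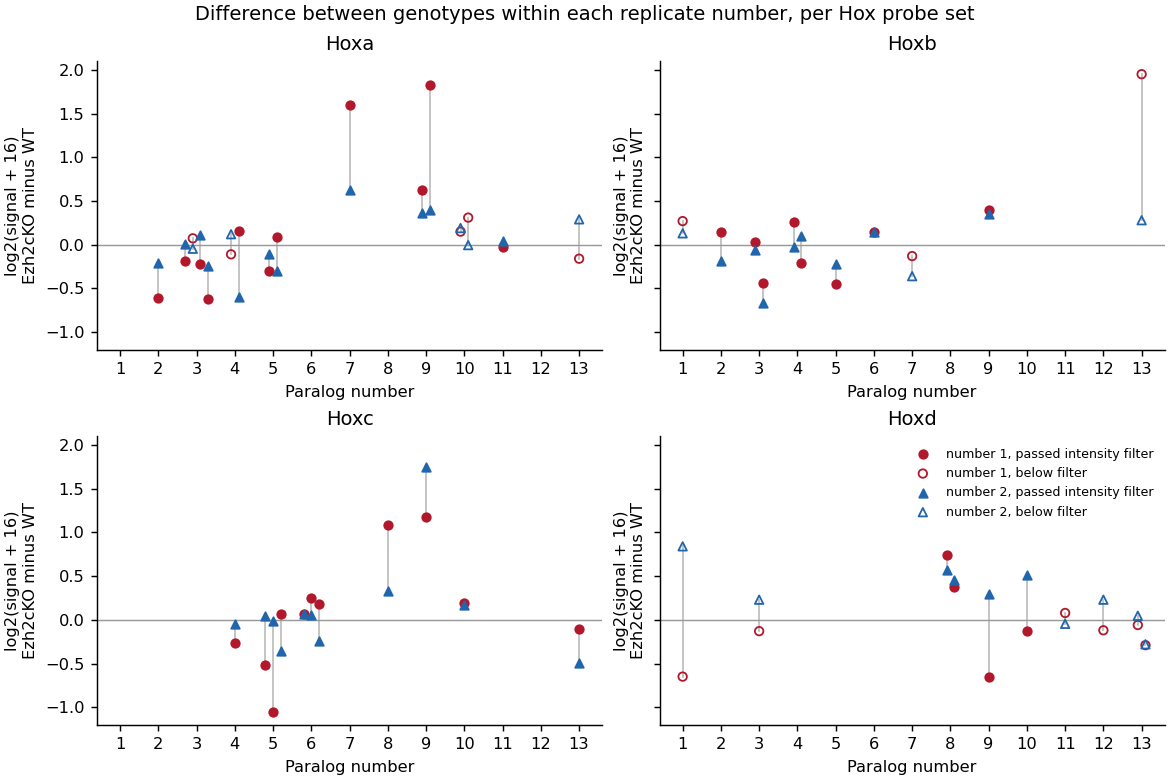
Difference in log2(signal + 16), Ezh2cKO minus WT, within replicate number 1 (circles) and number 2 (triangles) for each of the 48 Hox probe sets, by cluster and paralog number. Filled symbols passed the intensity filter, open symbols lay below it, and a line joins the 2 values of a probe set. Pairs wholly above 0.3 occur at paralogs 7 to 9 and nowhere else among filled symbols.

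The filter left out 14 Hox probe sets, with signals from 1.75 to 73.3, and 10 genes had no kept probe set: Hoxa10, Hoxa13, Hoxb1, Hoxb7, Hoxb13, Hoxd1, Hoxd3, Hoxd11, Hoxd12 and Hoxd13. Every Hoxc probe set was kept, against 11 of 16 in Hoxa, 8 of 11 in Hoxb and 4 of 10 in Hoxd. In 13 of the 14 dim probe sets the genotypes overlapped. The exception, Hoxb13, a posterior gene, had 54.0 and 5.51 in the Ezh2cKO arrays, against 2.09 and 1.75 in the WT arrays. Only Ezh2cKO replicate 1 stood clearly apart, and MAS5 values at this level are noisy. Hoxd11 had 14.5 and 11.7 in the Ezh2cKO arrays and 12.9 and 12.6 in the WT arrays.

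Differences between the replicate numbers were of similar or greater size for many Hox genes. In 21 of the 34 kept probe sets the mean difference between number 2 and number 1 exceeded that between genotypes, against 79.3% of all kept probe sets. Hoxc6 probe set 1427454_at had 40.8 and 103 in the Ezh2cKO arrays and 34.0 and 125 in the WT arrays, so the arrays numbered 2 were the high ones in both genotypes. Hoxa9 by 1455626_at and Hoxa7 went opposite ways between the numbers in the genotypes: log2 -0.90 and -0.27 for number 2 minus number 1 in Ezh2cKO, and 0.53 and 0.70 in WT.

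**Figure D4:**
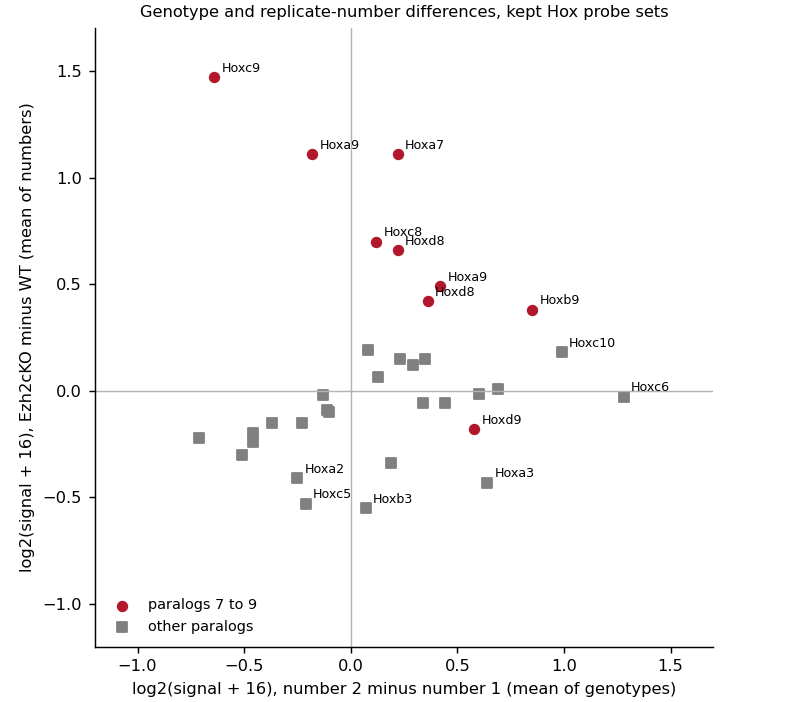
Mean log2(signal + 16) difference between Ezh2cKO and WT (vertical axis) against that between replicate number 2 and number 1 (horizontal axis) for the 34 kept Hox probe sets, on equal scales. Red circles are paralogs 7 to 9 and grey squares the others, with labels on probe sets far from 0 and on Hoxd9. Of the red circles, 8 of 9 lie above 0, and the grey squares stay between -0.55 and 0.19.

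Genes just outside the clusters were compared with the members. The 5 protein-coding genes on each side of each cluster in the RefSeq gene table gave 40 genes, of which 34 had a kept probe set. Their median log2 difference was 0.015, with 0 separated upward and 1 downward, against 7.22% and 7.21% of all kept probe sets. Evx2, a homeobox gene next to Hoxd13, had 82.5 and 135 in the Ezh2cKO arrays and 88.9 and 100.3 in the WT arrays. Hibadh, a metabolic enzyme gene beside Hoxa, was the one separated downward, with 1352 and 1396 in the Ezh2cKO arrays and 1691 and 1468 in the WT arrays (log2 -0.20).

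Among proteins that bind DNA together with Hox factors, the TALE homeodomain family, 7 of 9 listed genes had a kept probe set, and 1 was separated upward and 0 downward, where 7.22% and 7.21% of all kept probe sets were. This was Meis1, a cofactor of posterior Hox proteins, with 325 and 251 in the Ezh2cKO arrays, against 193.0 and 193.3 in the WT arrays (log2 0.53). Pbx2 and Pknox1 gave log2 0.062 and -0.16, and the list's median was -0.0064. Of 13 upstream regulators of Hox expression, mainly genes of retinoic acid signalling, 7 were kept, 1 separated upward and 1 downward, against the same 7.22% and 7.21%. Rarg, the retinoic acid receptor of epidermis, had 2207 and 2178 in the Ezh2cKO arrays, against 2680 and 2588 in the WT arrays (log2 -0.26), and Crabp2, a retinoic acid carrier, gave 0.14. Of 12 genes on the trithorax side, which opposes Polycomb at Hox genes, 11 were kept, 0 separated upward and 1 downward, again against 7.22% and 7.21%. That was Kmt2d, a histone H3 lysine 4 methyltransferase, with 1418 and 1135 in the Ezh2cKO arrays, against 1600 and 1522 in the WT arrays (log2 -0.30). Kdm6b, a demethylase that removes H3K27me3, gave 0.12, and 0 genes of the 3 lists passed limma's adjusted threshold, as 0 of all kept probe sets did.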

How the data were processed

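RNA of 4 arrays (2 Ezh2cKO, 2 WT) was measured, and groups and replicate numbers were read from the sample titles. The deposited values are signal intensities that the authors made with MAS5, per the submitters' processing notes, which give no version. They are linear, and the authors' scaling (a mean of 500.0 on each array after trimming 2% at each end) was kept. Detection calls were not used here. Of 45101 probe sets, 64 controls were left out. Of the rest, 34945 had 1 symbol, 932 several and 9160 none listed, and 34741 matched the mouse RefSeq table (GRCm38.p6). That table supplied names and gene order. The annotation gave 5 antisense and 3 several-symbol Hox probe sets, which were not members.

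Values were transformed as log2(signal + 16). The upper 60% by mean signal (27022 probe sets) were fitted in limma 3.58.1 (R 4.3.3) using lmFit and eBayes with an intensity trend and without a block, leaving 2 residual degrees of freedom, with Benjamini-Hochberg adjustment over all of them. The number of arrays limits the precision. Related lists took the brightest kept probe set of each gene. Values in every array are given for kept Hox probe sets that separate the genotypes, for those with the greatest absolute moderated t in each cluster and for their genes' other probe sets, and up to 3 genes are named per related list. Other genes were named after their values were seen. The members and lists were chosen with earlier results of these data known. The fit was tested on simulated arrays that varied independently, with no shared effect of the replicate number. That test does not show how the fit performs on the arrays used here. The alternatives were other pseudocounts, filters and scalings, the replicate number as a block, no trend, an adjusted p of 0.1, gene means and leaving out each array.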

Additional observations from a re-analysis of the deposited data

How the results depend on the processing

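The count of Hox probe sets past the adjusted threshold was 0 under every alternative run. Of the alternatives, scaling and averaging per gene could undo a separation of the arrays by changing their values, and the 7 probe sets of paralogs 7 to 9 separated upward were still separated after both rescalings. Hoxc9, one of the 7, was not in the upper 40% of probe sets. The 4 separated downward became 2 after quantile normalization, 1 after scaling to a common median (none of the 4) and 2 with probe sets averaged per gene. The shares over all kept probe sets were 8.71% and 5.65% after the 2 rescalings, and the share over all genes was 7.22%. The Hoxa median was 0.0063 without the filter on low values, and the posterior median was 0.49 in the upper 40% of probe sets, where 3 probe sets remained to it. The labels do not say that the replicate numbers mark shared litters or days. With the replicate number as a block, the deviations of same-numbered arrays having a correlation of 0.766 over kept probe sets, 6 of all probe sets and 0 Hox probe sets passed, the lowest Hox adjusted p in limma was 0.219 (Hoxc9), and Ezh2 passed at log2 -1.88.

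Leaving out 1 array makes a genotype a lone array, assumed to vary like the others, and raises counts of separated probe sets by construction. Over these fits 10 to 17 of 34 Hox probe sets were above, where 20.8% to 38.8% of all kept probe sets were. Below were 9 to 11, where 21.4% to 37.2% of all kept probe sets were. Ezh2 lay between -2.36 and -1.40, and medians ranged from -0.058 to 0.21 (all Hox), -0.057 to -0.012 (Hoxa), -0.16 to 0.22 (Hoxb), -0.012 to 0.13 (Hoxc), 0.10 to 0.50 (Hoxd), -0.31 to -0.10 (anterior), -0.018 to 0.16 (central), -0.061 to 0.68 (posterior) and 0.45 to 0.82 (paralogs 7 to 9, chosen after seeing the data). Only some of the kept Hox probe sets were followed singly over these fits, and the others were not checked. Among those followed, the differences that changed sign were those of Hoxb3 1427605_at (-0.34 to 0.31), Hoxb9 (-0.061 to 0.82) and Hoxd9 (-0.70 to 0.35). Hoxc5 1439885_at (-0.61 to 0.13) and Hoxc5 1456301_at (-0.44 to 0.14) also changed sign, and the cause was not tested. Each of these fits leaves the replicate numbers unbalanced between the genotypes, so the difference between the numbers enters these values. Hoxb9 was above 0 within both numbers (0.40 and 0.35), and the others named here had opposite signs within the numbers.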

Other observations

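Some transcripts beside the members, named after their values were seen, had values worth recording. Hoxb5os, an RNA antisense to Hoxb5, had a signal of 157 and 199 in the Ezh2cKO arrays, against 264 and 247 in the WT arrays, so it was lower in both Ezh2cKO arrays as the Hoxb5 probe set was. Hoxd3os1 by probe set 1460056_at had 113.9 and 238 in the Ezh2cKO arrays and 56.4 and 177 in the WT arrays, with overlapping genotypes. Aldh1a2, an enzyme of retinoic acid synthesis, lay below the intensity filter, with 53.5 and 47.3 in the Ezh2cKO arrays, against 10.96 and 25.7 in the WT arrays, and its genotypes did not overlap.

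Among markers of other cells, 7 of 7 endothelial genes were kept and had a median log2 difference of -1.05 within number 1 and 0.10 within number 2. The melanocyte list (4 of 6 kept) gave -0.74 and 0.043, the immune list (5 of 6) -0.34 and -0.17, the Schwann cell list (4 of 6) -0.22 and 0.035, the skeletal muscle list (5 of 6) 0.15 and 0.10, the erythroid list (1 of 4) -0.42 and 0.075, and the Merkel cell list (3 of 4) 0.35 and 0.15.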
